A study of Mus musculus with 24 samples.

Results

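Depletion of Fem1b alone was compared with a control transfection in C2C12 cells, a mouse myoblast line. The comparison takes 6 of the 12 libraries of the series, or 12 of its 24 deposited runs: 3 libraries labelled siFem1b and 3 labelled siCont, each sequenced in 2 runs that were added together. All 4 groups of the series, which also holds siKeap1 and siFem1b/Keap1 libraries, were kept undifferentiated and subconfluent in DMEM with fetal bovine serum. Total RNA was taken 48 h after transfection and selected for poly(A) tails. The siCont cells received a non-targeting siRNA, and the siFem1b cells received siFem1b #1, the one siRNA used against Fem1b in these libraries. Nothing in the labels says whether the 3 libraries of a group came from separate cultures, so p-values cover only how these libraries vary among themselves, and that variation may be technical.

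FEM1B is a substrate receptor of the CUL2 ubiquitin ligases, which tag proteins for destruction by the proteasome. It is known to recognise the folliculin-interacting protein FNIP1 when conserved cysteines of FNIP1 are in the reduced state, as under reductive stress. KEAP1 answers oxidative stress: with CUL3 it keeps the transcription factor NRF2 (gene Nfe2l2) low until oxidants modify its own cysteines. Myoblasts are muscle precursors that divide while growth factors are present. When serum is withdrawn they leave the cell cycle, switch on myogenin, fuse and build sarcomeres.

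The siRNA duplexes are shown first because a short RNA can also lower transcripts that match only its seed, bases 2 to 8 of the guide strand. Capitals mark that seed in each guide and the matching letters in each sense strand.
siFem1b sense strand: gaagaucagugCAGAAUUa
siFem1b guide strand: uAAUUCUGcacugaucuuc
siCont sense strand: ugguuuacaugUUUUCUGa
siCont guide strand: uCAGAAAAcauguaaacca
The whole sense strand of siFem1b was found in the coding sequence of Fem1b, in exon 2 of 2, at chr9:62796575-62796593 on the minus strand (GRCm38).
Fem1b target site: gaagatcagtgCAGAATTa
The 7 letters opposite the seed, CAGAATT, also stood in the 3′ UTR of 1652 of 13060 genes searched (12.6%). The next lines show that 7-letter match in genes described further on, in their 3′ UTR, with the matching letters in capitals.
Nfe2l2, chr2:75675853-75675871, minus strand: aagtaactatgCAGAATTa
Ccl7, chr11:82047336-82047354, plus strand: tgtgttagctgCAGAATTc
C1qbp, chr11:70978019-70978037, minus strand: tcccttggcatCAGAATTa
Adam9, chr8:24949843-24949861, minus strand: ttagataactaCAGAATTa
Shmt2, chr10:127517618-127517636, minus strand: aaactcccttcCAGAATTt
Slc2a1, chr4:119136606-119136624, plus strand: tttgatggctcCAGAATTt
Igf2, chr7:142652289-142652307, minus strand: aggtcaacttgCAGAATTa
The unbroken run of letters shared with the Fem1b target is 10 in Nfe2l2 and Igf2, 9 in Ccl7, 8 in C1qbp and Adam9, and 7 in Shmt2 and Slc2a1. A match is a description of letters, not a measured site of action.

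Levels below are CPM, the estimated counts of a gene per 1000000 counts of its library after normalisation between libraries by the trimmed mean of M-values. A gene was called higher or lower at an adjusted p under 0.05. The 6 libraries held 32960972 to 42980730 estimated counts and 18690 to 19793 detected genes, which leaves little counting error for genes at several CPM or more. Of 35968 annotated genes, 14577 passed the filter on low counts. The biological coefficient of variation was 0.0503. In a principal component analysis, the first component held 55.5% of the variance and parted the libraries with the Fem1b siRNA from those without it. Libraries of 1 group differed more than the 2 runs of 1 library did, with a chi-square per degree of freedom of 7.83 to 18.4 between libraries and 2.5 to 2.95 between runs, so none was taken for a repeat of another.

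Depletion was seen in every library. Fem1b stood at 95.2, 94.1 and 101 CPM with siCont and at 12.8, 13.6 and 13.4 CPM with siFem1b. The groups lay far apart, a 7.32-fold fall (log2 fold change −2.87 ± 0.061, SE; adjusted p = 4.9e-17). The related receptors were not higher. Fem1a went from 73.1, 73.1 and 72.6 to 65.6, 66.9 and 70.4 CPM (log2 fold change −0.11, adjusted p = 0.019), a call that was lost without siFem1b replicate 1 (adjusted p = 0.082) or replicate 2 (adjusted p = 0.074). Fem1c, at 44.7, 44.0 and 49.1 against 40.8, 50.6 and 43.8 CPM, overlapped between the groups (adjusted p = 0.76). Per unit of length, Fem1b was the most abundant of the family in control cells, at 20.8 TPM, a unit that divides by transcript length, against 15.5 for Fem1a and 11.7 for Fem1c, and the least abundant after depletion, at 3.17 TPM.

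The transcriptome as a whole moved. Of the 14577 genes tested, 9047 changed (62.1%), 4373 upward (30.0%) and 4674 downward (32.1%), and in 9267 (63.6%) the 3 libraries of one group did not overlap those of the other. These shares are the background against which every count below has to be read. Large changes were mostly rises. At a fold of 1.5 or more, 2079 genes were higher (14.3%) and 1000 lower (6.86%). At 4-fold or more, 403 rose and 26 fell, and at 10-fold or more, 112 rose and 6 fell. Falls were rarer among weakly expressed genes than among abundant ones, while rises were found at every level. Of 2688 genes under 1 CPM, 702 rose and 121 fell, whereas of 2442 genes at 100 CPM or more, 597 rose and 1245 fell. The excess of rises of 1.5-fold or more lay in genes under 20 CPM. At that fold, genes under 1 CPM gave 696 rises and 119 falls. Genes at 20 to under 100 CPM gave 325 rises and 410 falls, and those at 100 CPM or more gave 89 and 191. Over all genes tested the median log2 fold change was −0.01. With libraries scaled by their totals alone, 5457 genes rose and 3547 fell, so 60.6% of the changed genes were higher in place of 48.3%, and the median moved up by 0.1 on the log2 scale. Small changes of abundant genes are therefore relative to the scaling.

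Among genes averaging at least 5 CPM, the largest rises were muscle genes. Igf2, which encodes the insulin-like growth factor that myoblasts secrete as they differentiate, led them. Its level was 0.235, 0.318 and 0.391 CPM with siCont and 23.7, 21.9 and 24.9 CPM with siFem1b, a 73.5-fold rise from 35 counts in all to 2695 (log2 fold change 6.20 ± 0.17, adjusted p = 2e-15). Tnnc2, fast skeletal troponin C, rose 44.8-fold, from 0.443, 0.35 and 0.318 to 17.0, 14.8 and 18.5 CPM. Rbm24, an RNA-binding protein of muscle that acts on splicing and RNA stability, rose 38.4-fold, from 0.235, 0.446 and 0.22 to 11.1, 11 and 11.8 CPM. Hfe2 (hemojuvelin, a BMP co-receptor of muscle and liver) rose 29.7-fold. Mmp15, a membrane-type metalloproteinase, rose 13.7-fold, from 4.33, 4.01 and 4.69 to 58.8, 59.7 and 61.4 CPM. The guidance receptor Robo2 (11.3-fold), the glycosyltransferase Galnt6 (8.46-fold) and Mycl (8.21-fold), a relative of Myc, were also among the 20 largest rises.

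The 20 largest falls were of other kinds. Gsta1, a glutathione transferase, fell 22-fold, from 36.7, 34.9 and 37.1 to 1.57, 1.67 and 1.71 CPM. Ftl1, the ferritin light chain, fell 8.52-fold, from 3701, 4020 and 3583 to 477, 399 and 450 CPM. Prl2c2, a proliferin, fell 8.47-fold and its neighbour in sequence Prl2c3 fell 5.13-fold. Both glutathione transferases Gsta1 and Gsta2, the Prl2c genes, and Ftl1 with its pseudogenes are near-identical copies, so their estimated counts depend on how shared reads were split. Ccn2, a matricellular protein, went from 98.1, 93.9 and 99.4 to 27.8, 26.3 and 25 CPM (3.69-fold). Ngfr, the low-affinity neurotrophin receptor, fell 3.75-fold. C1qbp, a mitochondrial matrix protein, fell 3.43-fold and the dynein light chain Dynlt3 fell 3.42-fold.

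**Figure D1:**
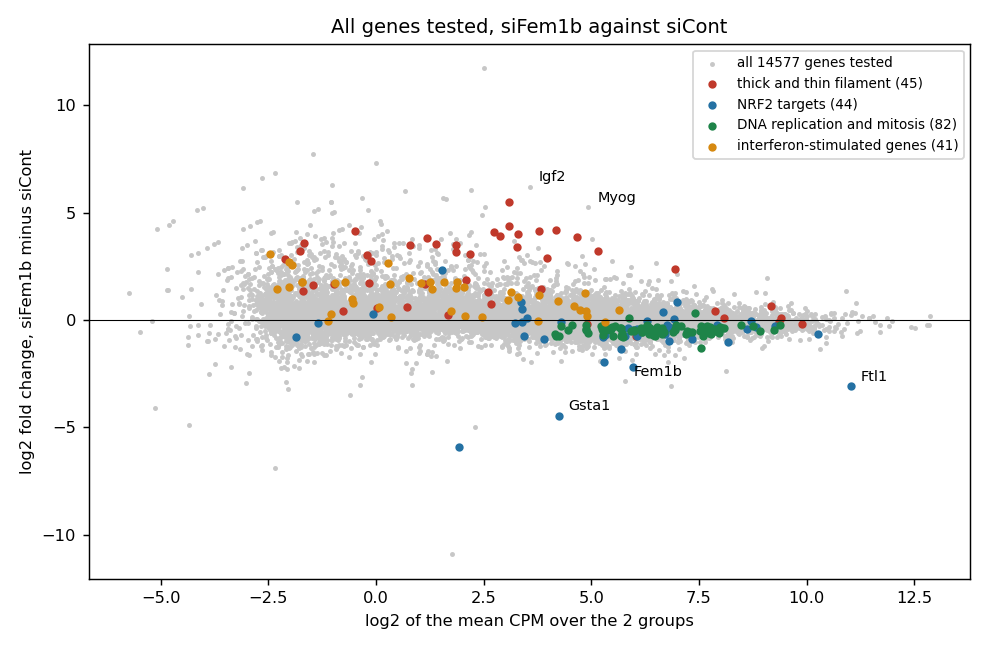
Log2 fold change of every gene tested (vertical axis, siFem1b minus siCont) against the log2 of its mean CPM over both groups (horizontal axis), with genes of 4 sets of lists in colour. Most thick and thin filament genes lie above 0, at low to middle levels. Most genes of DNA replication and mitosis lie in a band just below 0, and most NRF2 targets lie below 0.

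A few genes were almost confined to one condition. Adora1, the adenosine A1 receptor, had 3 counts over the siCont libraries and 181 over the siFem1b libraries. The predicted gene Gm49394 had 0 counts with siCont and 1305 with siFem1b (11.5 CPM). Its interval, chr7:142650769-142669942, spans Igf2 (chr7:142650766-142666816) on the same strand, so reads of the 2 cannot be fully told apart and both rises may come from one locus. In the other direction, the pseudogene Pgam1-ps2 had 677 counts with siCont and 0 with siFem1b, but its control libraries were uneven, at 1.83, 16.3 and 2.30 CPM, and it was not past the threshold (adjusted p = 0.06). Pgam1-ps2 is one of 467 processed pseudogenes tested, of which 21 were higher and 79 lower, and reads of such copies cannot be told apart from those of their parent genes.

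The myogenic regulators rose as a group, and myogenin far more than the rest. Of 26 tested, 20 were higher and 2 lower, with a median log2 fold change of 0.49. Myog, the factor that commits myoblasts to terminal differentiation, stood at 1.54, 1.85 and 1.32 CPM with siCont and at 57.3, 58.4 and 62.2 CPM with siFem1b. Every depleted library lay far above the highest control library, a 38.2-fold rise (log2 fold change 5.26 ± 0.099, adjusted p = 1.1e-17; chr1:134289989-134292548). The factors that mark the proliferating myoblast were already present and rose less. Myod1, a master regulator of the lineage, went from 88.0, 86.4 and 90.5 to 114, 108 and 119 CPM (1.29-fold, adjusted p = 2.4e-06), and Myf5 from 31.9, 35.7 and 34.9 to 79.4, 75.1 and 73.8 CPM (2.23-fold, adjusted p = 7.1e-13). In neither did the groups overlap. Per length, Myog came up from 1.74 to 73.2 TPM, past Myf5 at 62.6 TPM and toward Myod1 at 109 TPM.

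Other regulators of the series followed. Myf6, a regulator of late differentiation, rose 5.71-fold but reached only 1.13, 1.0 and 0.841 CPM. Mef2c, a partner of the MyoD family, rose from 7.56, 6.66 and 7.51 to 18.2, 20.2 and 18.1 CPM (2.59-fold). Smyd1, a methyltransferase needed for myosin assembly, rose 6.33-fold from 2.96 ± 0.59 to 18.8 ± 1.9 CPM (SD, n = 3). Pax7, the satellite cell factor that normally falls when myoblasts differentiate, rose too, from 9.34, 9.59 and 9.31 to 16.7, 15.6 and 17.2 CPM (1.76-fold). Repressors moved in opposite ways: Bhlhe41 rose 1.82-fold and Msc (musculin) fell 1.21-fold. The ubiquitous partner Tcf3 gave 186 and 189 CPM and was not past the threshold (adjusted p = 0.67).

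Fusion genes split. Of 27 tested, 17 were higher and 6 lower (median 0.27). Mymk, which encodes the membrane protein myomaker, went from 2.84, 2.93 and 2.27 to 17.6, 19 and 18.7 CPM, a 6.9-fold rise with no overlap. Mymx, which encodes its partner myomixer, had 3 counts over the siCont libraries and 113 over the siFem1b libraries, so a level of 0.86, 1.09 and 1.03 CPM stood against almost none. Dysferlin (Dysf), used in membrane repair, rose 3.04-fold, the chemokine receptor Cxcr4 rose 4.24-fold, and the adhesion receptors Cdon and Ncam1 rose 1.48-fold and 1.41-fold. Against these, Gdf11 fell 1.85-fold, Megf10 fell 1.49-fold and the small GTPase Rac1 fell 1.35-fold. Itgb1, the main integrin β chain, was not past the threshold.

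Sarcomere genes rose by several-fold. In the thick filament list, 18 of 21 rose and 1 fell, with a median log2 fold change of 2.35. Their summed level was 98.4 to 111 CPM over the siCont libraries and 410 to 430 CPM over the siFem1b libraries. Myl1, a fast myosin light chain, went from 3.16, 3.82 and 2.86 to 44.6, 48.9 and 49.8 CPM (14.7-fold). Myh3, the embryonic myosin heavy chain that is made first in new fibres, went from 1.98, 1.56 and 1.42 to 16.4, 17.6 and 18.9 CPM (10.6-fold). Titin (Ttn), the giant spring of the sarcomere, rose from 49.3, 35.6 and 36.4 to 213, 201 and 207 CPM (5.11-fold). In each of these the lowest depleted library lay above the highest control library. M-band genes took part, with Myom2 up 7.44-fold and Myom3 up 17.2-fold. The exception that fell was Obsl1, by 1.14-fold, which was not past the threshold without siFem1b replicate 2 (adjusted p = 0.084). A further 6 members, among them the adult genes Myh2, Myl2 and Myl3, had too few counts to be tested.

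The thin filament list behaved alike: 18 of 24 rose and 2 fell (median 2.87). The summed level moved far less, from 3283 to 3422 CPM up to 3562 to 3846 CPM, because tropomyosins that were abundant already make up most of it. Acta1, skeletal α-actin, went from 7.8, 6.75 and 6.11 to 64.5, 62.9 and 65.9 CPM (9.36-fold, adjusted p = 5.9e-17). Actc1, cardiac α-actin, which embryonic muscle also makes, rose 20.9-fold from 1.04, 0.573 and 0.685 to 15.1, 17.1 and 16.6 CPM. Nebulin (Neb), the ruler of thin filament length, rose 18.2-fold from 2.09, 1.82 and 1.76 to 33.1, 33.9 and 36.4 CPM. Tnnt1, slow troponin T, rose 14.9-fold and Klhl41, a stabiliser of nebulin, rose 16-fold. The cardiac troponin T gene Tnnt2 went the other way, from 82.2, 83.0 and 81.7 to 56.4, 41.6 and 47.6 CPM (1.69-fold lower, adjusted p = 9.8e-05). Tropomyosins of the resting myoblast moved little: Tpm4 fell 1.13-fold and Tpm1 (656 and 702 CPM) was not past the threshold (adjusted p = 0.13), although it was without siFem1b replicate 2 (adjusted p = 0.0034).

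**Figure D2:**
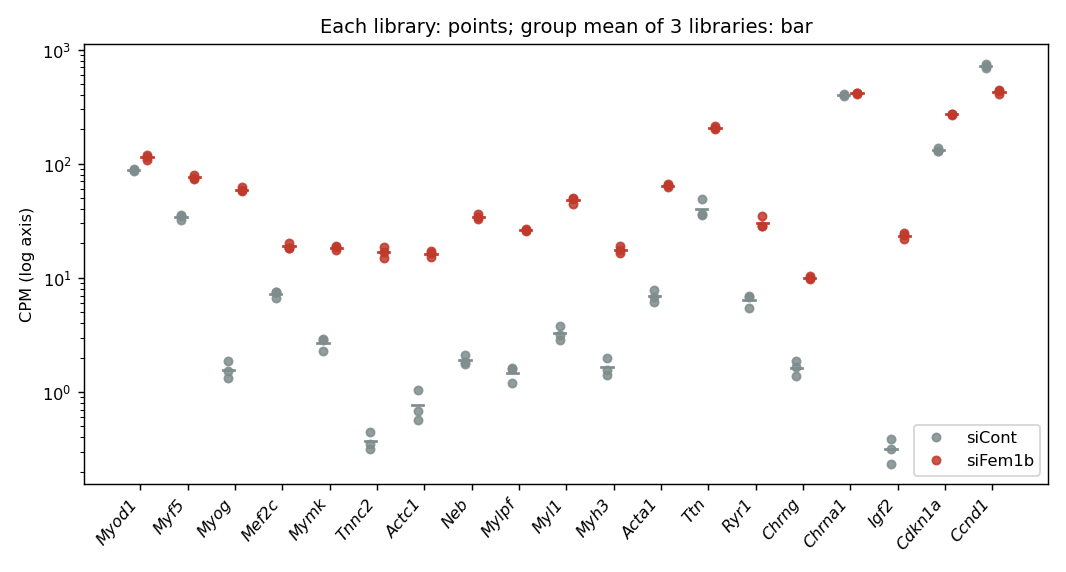
CPM of 19 genes of the myogenic programme and cell cycle in each library (points, log axis) with the mean of 3 libraries per group (bars). Libraries of a group sit close together, and only Chrna1 shows siCont and siFem1b points at the same height.

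Parts of the fibre beyond the filaments were also higher. In the Z-disc and costamere list, 14 of 20 rose and 4 fell (median 0.67): Pdlim3, an actinin-binding protein, rose 5.55-fold from 18.7 ± 2.3 to 103 ± 2.0 CPM, and Synpo2l rose 6.38-fold. The falls there were in genes already abundant in control cells, Ankrd1 (1.36-fold) and the filamin Flnc (1.3-fold). In the list for excitation and calcium handling, 18 of 25 rose and 3 fell (median 1.18). Ryr1, the calcium release channel, went from 6.96, 6.75 and 5.45 to 28.2, 28.7 and 34.5 CPM (4.78-fold). Junctophilin (Jph2), which holds that channel against the surface membrane, rose 2.22-fold, and the calcium channel subunits Cacng1 and Cacnb1 rose 2.26-fold and 3.3-fold. Trdn, triadin, came from 1 control library at 0.0244 CPM and none in the others to 0.615, 1.26 and 1.08 CPM. Asph, aspartyl hydroxylase, fell 1.43-fold, and the calcium pump Atp2a2, at 623 and 615 CPM, was not past the threshold (adjusted p = 0.68).

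At the neuromuscular junction, 9 of 14 genes rose and 2 fell (median 0.58). Subunits of one receptor moved apart. Chrng, the fetal γ subunit of the acetylcholine receptor, went from 1.67, 1.85 and 1.37 to 9.98, 9.73 and 10.4 CPM. Chrna1, the α subunit, was at 390, 410 and 397 against 414, 417 and 407 CPM (adjusted p = 0.25), and Chrnd and Chrnb1 fell by 0.20 and 0.23 on the log2 scale. Genes of the clustering machinery rose: the agrin receptor Lrp4 (log2 fold change 1.96) and the kinase Musk (1.11). In the dystrophin list, 13 of 20 rose and 3 fell (median 0.50). Lama2, laminin α2 of the muscle basement membrane, rose 3.51-fold from 31.5 ± 1.3 to 111 ± 3.2 CPM, and the sarcoglycan Sgca rose 5.65-fold. Dystrophin itself (Dmd) had too few counts to be tested.

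Muscle metabolic genes were mixed, with 12 of 22 higher and 4 lower (median 0.47). Muscle creatine kinase (Ckm) rose 7.3-fold to 2.59 CPM and the fatty acid carrier Fabp3 rose 8.37-fold to 9.52 CPM, whereas Pdk4 and Hk2 fell 1.68-fold and 1.52-fold. Splicing regulators mostly fell, 15 of 22 with 5 higher (median −0.27). Ptbp1, a repressor of muscle and neural exons, went from 617 ± 2.2 to 463 ± 14 CPM (1.33-fold lower) and Mbnl3 fell 2.01-fold, while Rbm24 and Celf2 rose.

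Growth factor systems that act on myoblasts changed on both sides. Of 18 tested members of the IGF system, 9 rose and 6 fell (median 0.24). Beside Igf2 itself, the binding protein Igfbp5, a secreted partner of IGFs that is made by differentiating myoblasts, rose from 1073, 1074 and 1117 to 2842, 2694 and 2834 CPM, and Igfbp2 fell from 717, 748 and 706 to 332, 272 and 317 CPM. Neither pair of groups overlapped. Of 14 imprinted growth genes, 9 rose and 1 fell: Peg3 rose 2.41-fold to 742 ± 10 CPM, and Peg10 fell 1.75-fold. The Notch list, whose receptors hold muscle precursors undifferentiated, had 15 of 20 higher and 4 lower (median 0.34). The receptor Notch3 went from 51.5, 50.9 and 48.8 to 111, 109 and 113 CPM (2.2-fold), the ligand Dll1 rose 6.81-fold and the target Hey1 rose 4.05-fold, while Rbpj, the DNA-binding partner of all Notch receptors, fell 1.46-fold.

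In the BMP and ID list, 18 of 30 rose and 7 fell (median 0.25). ID proteins block the partners of MyoD, and each of those named here was higher with siFem1b: Id1 went from 55.3, 60.0 and 55.0 to 135, 116 and 128 CPM (2.22-fold), Id3 from 70.7, 83.8 and 76.9 to 165, 162 and 170 CPM (2.15-fold), and Id2 rose 1.49-fold. The feedback inhibitor Smad6 rose 2.28-fold. Wnt genes gave 17 of 31 higher and 7 lower (median 0.31), with Wnt10a up 2.13-fold, the receptor Fzd4 up 3.01-fold and Ctnnb1, β-catenin, lower. FGF and ERK feedback genes gave 11 of 23 higher and 7 lower (median 0.25), where Fgfr4, a receptor of differentiating muscle, rose 5.65-fold and Myc fell 2.0-fold, from 88.4, 87.9 and 85.8 to 46.7, 41.2 and 42.9 CPM. The TGF-β list had 12 of 21 higher and 7 lower (median 0.17), and the lysyl oxidase Loxl2 was among those that fell (2.65-fold).

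Matrix genes were rearranged. Collagen chains gave 12 of 24 higher and 6 lower (median 0.38). The fibrillar chains Col1a1, Col3a1 and Col5a3 rose 2.31-fold, 1.74-fold and 3.0-fold, and Col6a2 rose from 47.9, 54.6 and 50.1 to 180, 172 and 183 CPM (3.5-fold). The basement membrane chains Col4a1 and Col4a2 fell 1.46-fold and 1.33-fold. All but one of the 9 leucine-rich matrix proteins rose (median 1.85). Decorin (Dcn), which binds collagen fibrils and myostatin, went from 1.2, 1.62 and 1.25 to 15.6, 19.4 and 16.3 CPM (12.7-fold, adjusted p = 1.2e-12). Osteoglycin (Ogn) went from 18.5, 24.1 and 22.9 to 82.9, 109 and 87.0 CPM, and the most abundant member, biglycan (Bgn), at 537 and 508 CPM, was not past the threshold. Among other matrix genes, 23 of 41 rose and 13 fell: the nidogens, linkers of the basement membrane, moved apart, with Nid1 down from 1866, 1753 and 1880 to 714, 713 and 713 CPM and Nid2 up 3.15-fold. Tenascin C (Tnc) fell 2.52-fold and osteopontin (Spp1) fell 1.86-fold.

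Cell cycle genes fell together, by small amounts. Of 41 genes of DNA replication, 40 fell and none rose (median −0.51), against 32.1% of all genes tested lower. Mcm5, a subunit of the replicative helicase, went from 237, 248 and 244 to 145, 141 and 152 CPM (1.66-fold), and the loading factor Cdc6 fell 1.71-fold. Gins2, at 56.8 and 59.8 CPM, was the member not past the threshold (adjusted p = 0.21). Of 41 mitosis genes, 39 fell and 1 rose (median −0.43). Cdk1, the kinase that drives entry into mitosis, went from 250, 276 and 251 to 173, 163 and 165 CPM (1.55-fold), and Kif20a, a kinesin of cytokinesis, fell 2.48-fold from 266 ± 5.0 to 107 ± 3.6 CPM, the one member of either list to fall by 2-fold or more. The one that rose was the phosphatase Cdc25b (1.26-fold). Mki67, the proliferation antigen, fell 1.19-fold (adjusted p = 0.00026), with the highest depleted library at 647 CPM and the lowest control library at 669 CPM. In RNA from whole cultures, fewer cells of a type and less of an RNA in each cell cannot be told apart.

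Brakes on the cycle rose. Cdkn1a, the CDK inhibitor p21 that myoblasts induce on exit from the cycle, went from 129, 136 and 129 to 274, 273 and 268 CPM (2.07-fold, adjusted p = 3.1e-14). Cdkn1b and Cdkn1c rose 1.46-fold and 2.48-fold, and the retinoblastoma gene Rb1 rose 1.81-fold. D-type cyclins moved apart: Ccnd1, the growth factor-induced cyclin, fell from 723, 696 and 748 to 440, 412 and 431 CPM (1.69-fold), and Ccnd3, the one kept in differentiated muscle, rose 1.58-fold. Over the whole list of CDK inhibitors and D cyclins, 10 of 20 rose and 7 fell (median 0.11). Among p53 targets, 12 of 27 rose and 9 fell. Btg2, an antiproliferative gene of that list, rose 4.03-fold.

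NRF2 targets were mostly lower. Of 44 tested, 29 fell and 5 rose (median −0.40), and their summed level went from 10227 to 11001 CPM over the control libraries down to 5276 to 5433 CPM. Most of that loss was Ftl1, whose reads are shared with pseudogenes, and without it the sum went from 6527 to 6980 CPM down to 4877 to 4955 CPM. Nfe2l2 itself, the gene of NRF2, went from 136, 137 and 135 to 67.4, 65.4 and 67.7 CPM (2.03-fold lower; log2 fold change −1.02 ± 0.036, adjusted p = 2.9e-14; chr2:75675513-75704641), and its 3′ UTR holds the seed match printed above. Its controller Keap1, at 60.6, 63.3 and 61.4 against 56.7, 57.5 and 63.3 CPM, overlapped between groups (adjusted p = 0.39). Nqo1, the quinone reductase often used as the standard NRF2 readout, fell from 70.2, 74.7 and 77.3 to 27.9, 28.2 and 29.2 CPM (2.61-fold). Gsta4 fell 4.54-fold, from 103, 104 and 99.9 to 23.8, 20.9 and 22.8 CPM, the aldehyde dehydrogenase Aldh3a1 fell 3.84-fold, and Gsta2 fell from 7.28, 7.01 and 8.14 to 0.123, 0.112 and 0.131 CPM. Not all of the list followed: Idh1 and Gstt3 rose 1.78-fold and 5.02-fold, and Prdx1, at 424 and 417 CPM, was not past the threshold (adjusted p = 0.78).

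Iron genes fell with them, 15 of 28 with 2 higher (median −0.30). Both ferritin chains were lower, Ftl1 as given above and Fth1 from 1498 ± 90 to 951 ± 34 CPM (1.58-fold), as was Hmox1, the heme-degrading oxygenase (1.63-fold). Other antioxidant enzymes were mixed, with 7 of 25 higher and 10 lower: Prdx6 fell 2.27-fold from 215 ± 4.2 to 94.7 ± 1.4 CPM, and the secreted peroxidase Gpx3 rose 3.13-fold. Whether the fall of Nfe2l2 takes part in the fall of its targets was not tested.

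The direct partners of FEM1B changed in small steps at the RNA level. Of 9 substrates and partners, 2 rose and 4 fell, and of 16 genes of the FEM1 family and the CUL2 ligase, 2 rose and 4 fell. Flcn rose 1.51-fold, from 33.7, 34.8 and 33.8 to 49.5, 53.3 and 51.6 CPM (adjusted p = 1.5e-09). Flcn encodes folliculin, the partner of the FNIP proteins at the lysosome. Fnip1, the substrate, gave 67.9, 63.0 and 71.0 against 59.0, 69.7 and 62.0 CPM, overlapping values (adjusted p = 0.31). Fnip2 fell from 53.8, 50.1 and 56.6 to 41.2, 41.8 and 37.2 CPM (log2 fold change −0.42, adjusted p = 4.3e-06). FEM1B acts on FNIP1 as a protein, and protein levels were not measured here.

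Respiratory genes moved little. Complex I gave 10 of 37 higher and 4 lower (median −0.01), complexes II to IV gave 2 of 25 higher and 6 lower (median 0.0), and the ATP synthase 3 of 17 higher and 5 lower (median 0.07). Sdhd, an anchor subunit of complex II, was an exception at 1.95-fold lower, and its 3′ UTR holds a seed match. In complexes II to IV, the 2 genes with a match there had a median of −0.55, and those searched without one 0.01. Mitochondrially encoded transcripts gave 4 of 13 higher and none lower (median 0.18). In glycolysis, 13 of 23 fell and 6 rose (median −0.23): the glucose transporter Slc2a1 went from 267, 269 and 262 to 138, 125 and 132 CPM (2.02-fold), and Pgam1 fell 1.68-fold. The 3 glycolysis genes with a seed match in the 3′ UTR had a median of −0.79, and those searched without one −0.01. In the TCA cycle, 15 of 23 fell and 3 rose, but the median was only −0.12 and 7 fell when libraries were scaled by their totals alone.

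Lysosomal genes leaned upward. Of 43 tested, 27 rose and 5 fell (median 0.24), and of 17 subunits of the vacuolar proton pump, which acidifies the lysosome, 13 rose and 2 fell (median 0.22). Gpnmb, a glycoprotein of stressed lysosomes, went from 2.01, 1.91 and 2.27 to 13.5, 13.9 and 13.6 CPM (6.57-fold). The GTPase Rragd, through which folliculin acts on the TFE3 and TFEB factors, rose 2.66-fold, the sialidase Neu1 rose 2.09-fold from 21.7 to 45.2 CPM, and the pump subunit Atp6v0d1 rose from 68.3 to 112 CPM. The autophagy receptor Calcoco1 rose 2.45-fold in a list with 12 of 27 higher and 7 lower. Sterol synthesis gave 15 of 26 higher and 3 lower (median 0.15), with Hmgcs1 up 1.56-fold and Srebf2, a regulator of the pathway, up 1.42-fold.

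Genes that supply protein synthesis and folding were lower. All 20 aminoacyl-tRNA synthetases tested fell (median −0.33). Lars, the leucine enzyme, fell 2.06-fold and was the only one lower by 1.5-fold or more. It was also the 1 of 19 searched with a seed match in the 3′ UTR. Those searched without a match had a median of −0.33. In the ATF4 and amino acid list, 20 of 32 fell and 8 rose (median −0.29): Shmt2, a mitochondrial enzyme of one-carbon metabolism, went from 409, 434 and 399 to 219, 192 and 205 CPM (2.01-fold), and Phgdh, the first step of serine synthesis, fell 1.66-fold. Among proteasome subunits, 27 of 32 fell and none rose (median −0.23). Chaperones gave 17 of 30 lower and 8 higher (median −0.18). Hspd1, the mitochondrial chaperonin, went from 968, 997 and 1022 to 535, 570 and 527 CPM (1.83-fold), while Cryab and Hspb2, small heat shock proteins of muscle, rose.

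Interferon-stimulated genes rose together. Of 41 tested, 34 rose and none fell (median 1.23), against 30.0% of all genes tested higher. Irf7, a factor that amplifies the interferon response, went from 0.313, 0.35 and 0.318 to 2.09, 1.95 and 2.23 CPM (6.37-fold, adjusted p = 2.1e-09). Ifi27 went from 15.9, 17.7 and 18.1 to 38.4, 40.7 and 42.1 CPM (2.34-fold), and the RNA sensor Ddx58 rose 2.24-fold. The summed level of the list went from 275 to 279 CPM in control libraries up to 408 to 431 CPM. Antigen presentation rose with it, 16 of 20 with 1 lower (median 0.85): Tapbp, which loads peptide on class I molecules, went from 70.7, 72.4 and 71.7 to 174, 169 and 174 CPM (2.41-fold), and H2-K1 rose 2.22-fold. Chemokines and cytokines did not rise as a group, with 8 of 19 higher and 6 lower. Ccl7 fell 3.85-fold, from 17.4, 21.9 and 18.6 to 5.21, 4.74 and 5.05 CPM, and Ccl2 fell 2.3-fold.

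**Figure D3:**
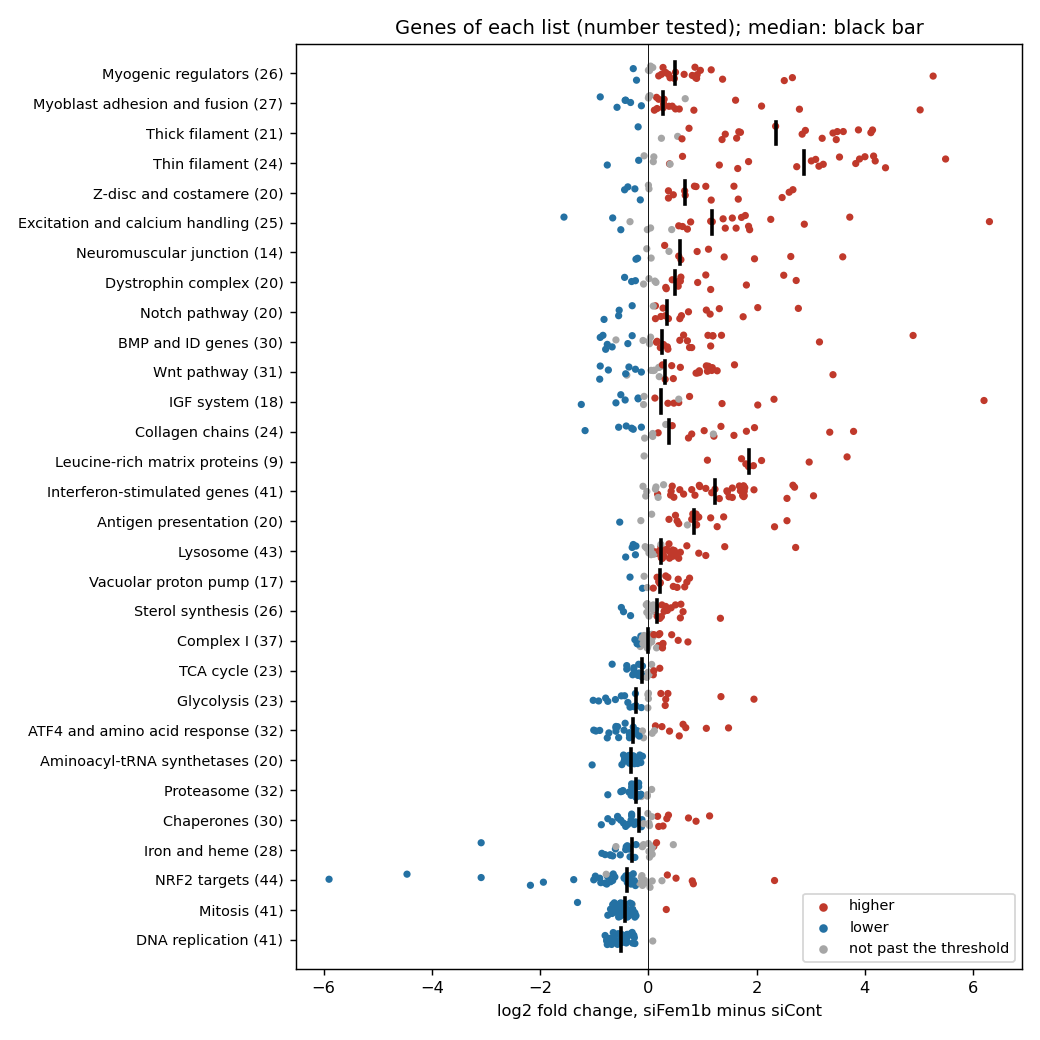
Log2 fold change (siFem1b minus siCont) of each gene tested in 30 lists, 1 point a gene, red where higher, blue where lower and grey where not past the threshold, with the list median as a black bar. The filament lists have medians of 2.35 and 2.87, the interferon list 1.23, and the lists of mitosis and DNA replication −0.43 and −0.51.

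The labelled cell type was set beside levels of marker genes. Of 10 myoblast markers, 8 were higher and 2 lower, and their summed level, which Vim leads, lay at 9791 to 9953 CPM in control and 9002 to 9284 CPM in depleted libraries. All 10 myotube markers rose (median 3.19), from a sum of 20.6 to 25.8 CPM to 223 to 245 CPM. Libraries of both groups thus held these transcripts, more with siFem1b, although the labels call the cells undifferentiated. The marker lists were chosen with earlier results of these data known, so this rise is no separate check of cell state. Whether the cells had formed myotubes was not tested. Some markers of other cell types were at or near 0. Epcam and Krt5 of epithelia had 1 count each in control cells, and 1 and 7 counts with siFem1b. Adgre1 of macrophages and Cldn5 of endothelia had none in either group, and Ptprc, carried by all leukocytes, had 15 and 23 counts. Summed leukocyte markers were level, at 11.1 to 12.9 and 11.5 to 12.5 CPM. Epithelial markers rose in 6 of 9 tested, 5 of them by 1.5-fold or more, with a median log2 fold change of 1.28. Their sum went from 46.3 to 51.4 up to 91.5 to 98.8 CPM, mostly Krt19 (2.05-fold). Smooth muscle and fibroblast markers rose in 5 of 9 and fell in 1 (972 to 1033 against 1387 to 1578 CPM), and bone and cartilage markers summed to 1532 to 1706 against 914 to 960 CPM. Neural and Schwann markers summed to 230 to 236 against 308 to 313 CPM, with 3 of 4 tested higher, and endothelial markers to 1.15 to 1.41 against 1.81 to 2.04 CPM. Their part in the changes above was not tested.

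The same siRNA was also given to cells depleted of Keap1, which allows each change to be set beside a second one with its own controls (siFem1b/Keap1 against siKeap1, 3 libraries each). Of 30 genes chosen for a fuller account, 26 changed against siCont, beside 62.1% of all genes tested. In Keap1-depleted cells 26 changed. The 24 that changed in both had the same direction. The 30 were chosen with earlier results of these data known, and both comparisons use the same siRNA with the same seed. Agreement was therefore likely in advance, and the counts describe these genes only. Shares over all genes are not given for the second background or for differences between backgrounds, so those counts cannot be read as high or low. Fem1b fell by 3.00 on the log2 scale there against 2.87 here, a difference of −0.13 (adjusted p = 0.39). Nfe2l2 fell by 0.95 against 1.02 (difference 0.07, adjusted p = 0.42). Nqo1, which started from 401 CPM with siKeap1, fell by 1.40 against 1.38 (difference −0.02, adjusted p = 0.91). Acta1 rose by 3.29 against 3.23 (difference 0.07, adjusted p = 0.73). Igf2 had 2 counts over the siKeap1 libraries and 293 over the siFem1b/Keap1 libraries, or 2.63 CPM against 23.5 CPM with siFem1b alone, so its fold there is not given.

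For 11 of the 30 the size differed between backgrounds. Myog rose by 6.95 on the log2 scale in Keap1-depleted cells, 1.70 more than here (adjusted p = 0.039, and 0.055 with a replicate block), but from 4 counts over the siKeap1 libraries (0.0367 CPM) to only 4.97 CPM, far below the level with siFem1b alone. Myh3 rose by 2.04, 1.37 less than here (adjusted p = 0.00034). Cdkn1a rose by 0.69, which was 0.37 less (adjusted p = 8.9e-05), Id1 by 0.54, which was 0.61 less (adjusted p = 0.003), and Id3 by 0.68, which was 0.43 less (adjusted p = 0.00049). Myod1, 1.29-fold higher here, was not past the threshold there (log2 fold change 0.07, adjusted p = 0.25), and the difference of −0.30 had an adjusted p of 0.008. Decorin rose further there (4.86, difference 1.19, adjusted p = 0.029), but from 29 counts over the siKeap1 libraries (0.278 CPM) to 7.86 CPM. With siFem1b alone its level was 17.1 CPM. Mki67 fell further in Keap1-depleted cells (by 0.56, difference −0.30, adjusted p = 0.0089).

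**Figure D4:**
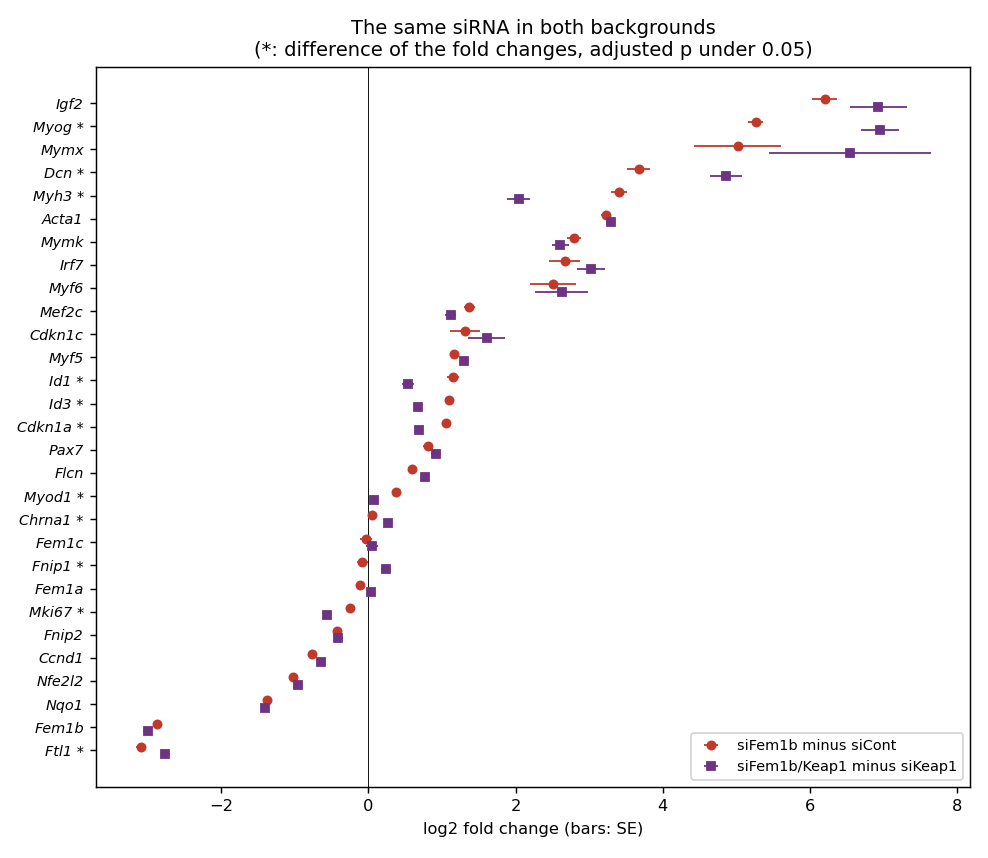
Log2 fold change on Fem1b depletion, with its standard error, for 29 genes in control cells (circles, siFem1b minus siCont) and in Keap1-depleted cells (squares, siFem1b/Keap1 minus siKeap1), ordered by the first. Circles and squares lie on the same side of 0 for the 24 genes that changed in both, and an asterisk marks each gene whose changes differed. Mymx rests on 3 counts in the siCont and 0 in the siKeap1 libraries and Igf2 on 2 in the siKeap1 libraries, so those plotted folds are not bounds.

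Genes that carry the letters opposite the siFem1b seed were lower more often. With a match in the 3′ UTR, 44.4% of 1652 genes were lower and 21.5% higher (median log2 fold change −0.14). Without a match anywhere in the transcript searched, 30.8% of 9891 genes were lower and 33.8% higher (median 0.02). Matches outside the 3′ UTR alone lay between, at 38.8% lower of 1517 genes (median −0.06). The classes differ in length, with a median 3′ UTR of 2411 bases in genes with a match and 943 over all genes searched. Among genes with a 3′ UTR under 1000 bases the gap was wider, with 56.1% of 269 genes lower with a match (median −0.27) against 34.0% of 6533 without (median −0.02). The control siRNA seed showed no such tilt in the 3142 genes that match it, of which 32.4% were higher and 32.6% lower. In Keap1-depleted cells, genes with a siFem1b match had a median of −0.16.

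The share of genes with a match grew with the size of the fall, up to 3-fold. It was 12.2% of genes in the class of smallest falls, 26.9% at 1.5 to under 2-fold and 36.0% at 2 to under 3-fold, then 18.2% at 3-fold or more. That last class is small, with 8 matches in 44 genes searched. Its 3′ UTRs were also shorter, with a median of 433 bases against 1046 in the class before. Among genes that rose it stayed between 8.0% and 9.6%, and it was 12.3% of genes not called. Of the 20 largest falls, 19 could be searched and 7 had a match in the 3′ UTR, namely Ccl7, C1qbp, Dynlt3, Tsn, Adam9, Chic2 and Tmem65. Chic2 went from 32.0, 30.8 and 30.6 to 9.02, 8.76 and 7.28 CPM, Tsn from 148, 158 and 159 to 49.9, 52.6 and 48.3 CPM, and Adam9 from 182, 183 and 194 to 60.5, 60.3 and 60.8 CPM, with no overlap in any of them. Among the large falls of the NRF2 list, Gsta1, Gsta4, Aldh3a1 and Nqo1 had no match in the transcript searched, and Ftl1 had 1 outside its 3′ UTR. The search for Gsta2, which also fell far, is not given here, and other members of the list did match, as counted below.

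Lists that moved held matches in numbers to be read against the 12.6% of all genes searched. A match was found in 0 of 19 thick filament genes searched, 0 of 10 myotube markers, 3 of 22 thin filament genes and 3 of 38 interferon-stimulated genes. Among mitosis genes 3 of 40 matched, with a median of −0.75 with a match and −0.40 without. Among DNA replication genes 6 of 40 matched, with medians of −0.57 and −0.50. The gap was wider in glycolysis (3 of 22 matched, −0.79 and −0.01) and in iron and heme (6 of 26 matched, −0.51 and −0.24). In the ATF4 list 5 of 32 matched, with medians of −0.28 and −0.30. For NRF2 targets 6 of 43 matched, with a median of −0.36 with a match and −0.39 without. Igf2 rose 73.5-fold while holding a match. The part of seed matches in the change of any single gene was not tested.

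**Figure D5:**
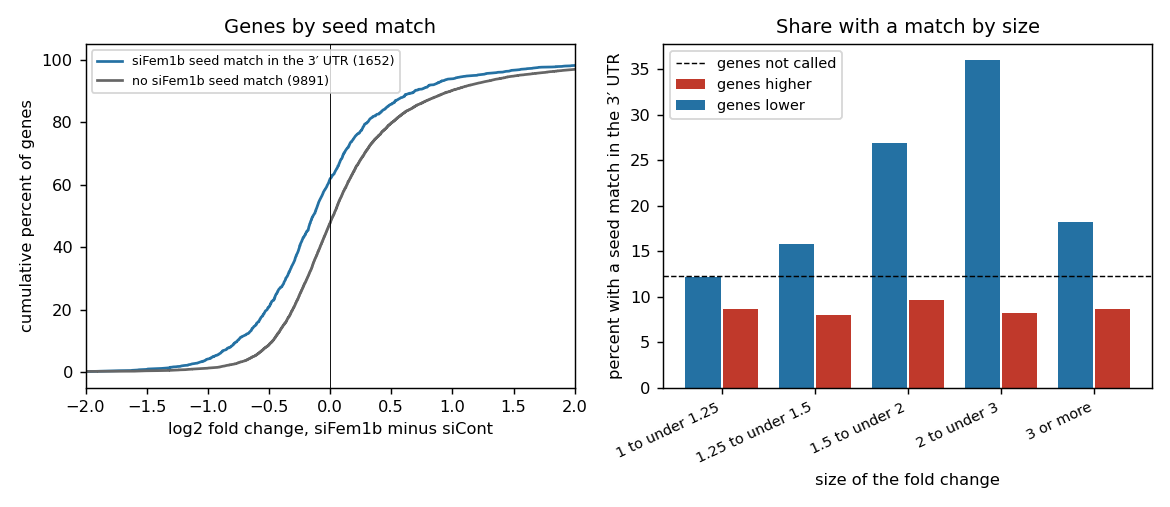
Left, cumulative percent of genes by log2 fold change (siFem1b minus siCont) for 1652 genes with a siFem1b seed match in the 3′ UTR and 9891 without a match. Right, percent of genes with a match by size of change, for genes lower (blue) and higher (red), with genes not called as the dashed line at 12.3%. The line of genes with a match lies to the left, and the blue bars reach 36.0% at 2 to under 3-fold.

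Promoters of the lists that moved together were searched for short motifs, from 250 bases before to 50 bases after the gene start (RefSeq, GRCm38.p6; both strands). The E-box CAGCTG, a sequence that MyoD and myogenin bind, stood in 16.3% of all 32851 promoters and 15.8% of those of genes tested. It stood in 36.8% of 19 thick filament promoters, 42.3% of 26 thin filament promoters and 41.2% of 17 promoters of the excitation list. Other lists that rose held it less often, at 21.7% of 23 Z-disc and costamere promoters and 13.6% of 22 promoters of myogenic regulators. It stood in 26.8% of 388 promoters of genes higher by at least 4-fold. Another E-box searched for, CACCTG, stood in 42.1% of thick filament, 30.8% of thin filament and 17.6% of excitation promoters. Its share was 18.1% in promoters of genes tested. Windows around CAGCTG are shown for 2 thin filament and 2 calcium handling genes, with the motif in capitals.
Acta1, chr8:123894971-123895016, minus strand: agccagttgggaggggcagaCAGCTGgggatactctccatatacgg
Klhl41, chr2:69669973-69670018, plus strand: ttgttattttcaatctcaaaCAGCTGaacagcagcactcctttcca
Atp2a1, chr7:126463103-126463148, minus strand: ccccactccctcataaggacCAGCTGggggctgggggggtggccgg
Cacna1s, chr1:136052668-136052713, plus strand: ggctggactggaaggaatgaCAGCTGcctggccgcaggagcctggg
The motif began 221 bases before the start of Acta1, 127 before Klhl41, 55 before Atp2a1 and 123 before Cacna1s.

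The interferon response letters GAAANNGAA stood in 46.2% of 39 promoters of interferon-stimulated genes and 8.56% of all promoters. The cell cycle homology region TTTGAA, a motif of G2 and M phase promoters, stood in 75.0% of 36 mitosis promoters, 11.4% of 35 DNA replication promoters and 17.9% of all. The core antioxidant response letters TGACNNNGC stood in 25% of 48 promoters of NRF2 targets, 12.4% of all and 13.8% of those of genes tested. They also stood in 26.3% of thick filament promoters, 22.2% of mitosis promoters and 20% of DNA replication promoters. One window of each is shown, with the motif or its reverse complement in capitals.
Bst2, chr8:71537568-71537616, minus strand: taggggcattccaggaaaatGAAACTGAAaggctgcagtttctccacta
Cdk1, chr10:69352958-69353003, minus strand: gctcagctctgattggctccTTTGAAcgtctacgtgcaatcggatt
Gclm, chr3:122245403-122245451, plus strand: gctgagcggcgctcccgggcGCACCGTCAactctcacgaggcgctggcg
Bst2 encodes tetherin, an interferon-induced restriction factor, and Gclm the modifier subunit of glutamate-cysteine ligase, which went from 82.5, 84.0 and 83.5 to 53.4, 46.0 and 47.9 CPM (1.7-fold lower). A match describes the letters only, and binding was not measured.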

How the data were processed

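RNA was measured in 12 libraries of 2 runs each, and the 6 of siFem1b and siCont were compared. Per the submitters' processing notes, reads were processed with kallisto 0.44.0, with mm10 named as the build. The deposited tables give estimated counts per transcript, which need not be whole, and TPM, the authors' value per transcript length. Here a gene's estimated count is the rounded sum of its transcripts (GENCODE M21) in the 2 runs. TPM was summed per gene and averaged over the runs.

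The main test was the quasi-likelihood test of edgeR 4.0.16 (R 4.3.3) with Benjamini-Hochberg adjustment, trimmed mean of M-values scaling and the filter of edgeR on low counts, fitted to all 12 libraries, with the interaction for the Keap1 background in the same fit. It was tested on simulated data. DESeq2 1.42.0 and limma-voom (limma 3.58.1) were alternatives. Replicate numbers do not pair the libraries.

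Genes were named by a rule: 30 key genes, the 20 largest changes each way with a mean of at least 5 CPM, and up to 6 genes per direction and 3 not past the threshold per list (all of a list under 20 genes). Untested members, those of the paragraph on genes almost confined to one condition, and Ttn, Trdn, Bst2, Cacna1s and Gclm were named after their values were seen. The comparison, the 61 gene lists and the key genes were chosen with earlier results of these data known. Promoters and 3′ UTRs came from RefSeq (GRCm38.p6) and GENCODE M21, respectively. A gene's seed match was searched in 1 transcript. The siKeap1 and siFem1b/Keap1 libraries were compared for the second background only, but also entered the filter, scaling and spread of the main fit. Some genes that the rule names are not reported here.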

Additional observations from a re-analysis of the deposited data

Results flagged for a closer look

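For 11 of the 30 key genes the effect of the Fem1b siRNA differed between Keap1-depleted cells and control cells, by edgeR's quasi-likelihood test of the interaction with Benjamini-Hochberg adjustment. The share of all genes tested with such a difference is not given. Values are the log2 fold change in Keap1-depleted cells minus that in control cells, with its standard error. The change was larger in Keap1-depleted cells for Myog (1.70 ± 0.52, adjusted p = 0.039) and Dcn (1.19 ± 0.34, adjusted p = 0.029), both of which rose in both. The Dcn value starts from 29 counts over the siKeap1 libraries. The Myog value starts from 4 counts there, and with a replicate block it was not past the threshold (adjusted p = 0.055), which left 10 genes. The change was smaller for Myh3 (−1.37 ± 0.22, adjusted p = 0.00034), Id1 (−0.61 ± 0.11, adjusted p = 0.003), Id3 (−0.43 ± 0.07, adjusted p = 0.00049), Cdkn1a (−0.37 ± 0.05, adjusted p = 8.9e-05) and Myod1 (−0.30 ± 0.07, adjusted p = 0.008). Mki67 fell further (−0.30 ± 0.07, adjusted p = 0.0089), and Ftl1 fell less (0.33 ± 0.08, adjusted p = 0.014). Fnip1 (0.33 ± 0.10, adjusted p = 0.044) and Chrna1 (0.21 ± 0.05, adjusted p = 0.0099) were not past the threshold in control cells and rose in Keap1-depleted cells, by 0.24 and 0.26. The Fnip1 difference was not past the threshold with library totals alone (adjusted p = 0.053).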

How the results depend on the processing

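Of 192 genes named with a test, 153 kept direction and call under each of the 18 alternatives, and none changed direction under any. Asking for a 1.5-fold change beside the adjusted p lowered the counts by construction: 3079 genes changed, 2079 higher and 1000 lower. Under it the genes higher were 12 myogenic regulators, 5 fusion genes, 8 of the dystrophin complex, 5 of the IGF system, 8 of Notch, 11 of BMP and ID, 4 of sterol synthesis, 6 of the lysosome and 3 of the proton pump. The genes lower were 2 splicing regulators, 13 of DNA replication, 8 of mitosis, 18 NRF2 targets, 7 of iron and heme, 1 of the TCA cycle, 5 of glycolysis, 8 of ATF4, 1 tRNA synthetase and 3 chaperones. With at least 5 CPM in 3 libraries, fewer genes were tested, and 9 thick filament genes, 2 leucine-rich matrix genes and 17 interferon-stimulated genes rose. In the first run alone, 11 thick filament genes rose and 9 TCA cycle genes fell. Scaling by library totals alone left 7 TCA cycle genes lower, ended the calls of Fem1a, Obsl1, Chrnd, Msc and Tpm4, and put Chrna1, Gins2, Tpm1, Itgb1 and Tcf3 past the threshold as higher. DESeq2's Wald test gave 4315 higher and 4429 lower, and limma-voom gave 4367 and 4691. Leaving out each library in turn gave 8472 to 8787 genes changed, 4087 to 4320 higher and 4295 to 4520 lower, and no list count left its range of 1.5 times. With a replicate block, 4276 genes were higher and 4615 lower. Fitting the 6 compared libraries only gave 4186 higher and 4203 lower. Deviations of same-numbered siCont and siFem1b libraries correlated at 0.143, −0.287 and −0.382 over 10211 genes, and not every library correlated best with its own number. The largest value was 0.547, between siCont 3 and siFem1b 2, and the labels record no batch that those libraries share. Depth limits genes under about 1 CPM, and the split of reads between near-identical copies limits Gsta1, Gsta2, the Prl2c genes and Ftl1.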

Other observations

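Targets of SRF and YAP, the factors that read actin tension, were divided: of 28 tested, 8 rose and 14 fell (median log2 fold change −0.11). The receptor kinase Axl fell 1.77-fold, from 746 ± 0.94 to 422 ± 9.5 CPM (SD, n = 3), and Fosl1, an AP-1 subunit, fell 2.01-fold. Smooth muscle actin Acta2 rose 1.55-fold to 703 ± 51 CPM, and vinculin (Vcl) rose 1.37-fold. Immediate early genes gave 9 of 23 higher and 7 lower, with Klf4 up 1.83-fold, Egr1 up 1.84-fold and Jun down 1.17-fold.

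In the FoxO and atrophy list, 9 of 16 genes rose and 5 fell (median 0.19). The 3 FoxO factors themselves were among those that rose: Foxo1 by 1.61-fold, Foxo3 by 1.41-fold and Foxo4 by 1.49-fold. The ubiquitin ligase Fbxo32 (atrogin-1) rose 1.45-fold, and Trim63 (MuRF1) rose 6.89-fold to 1.02 CPM. Fatty acid synthesis was split, 5 of 14 higher and 5 lower: the desaturase Scd1 rose 1.62-fold to 722 ± 28 CPM, and the elongase Elovl6 fell 1.71-fold. Lipid uptake and storage gave 12 of 25 higher and 4 lower, among them the droplet proteins Plin3 (1.73-fold higher) and Plin4 (1.97-fold higher). Of 4 prolactin family genes tested, 3 fell and none rose, and their summed level went from 646 to 708 CPM in control libraries down to 114 to 119 CPM.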
